A study of Mus musculus with 18 samples.

Results

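The genes described here are the ligands of the tumour necrosis factor (TNF) superfamily and their receptors, measured in mouse pancreatic islets that lack TRAF3 or TRAF2 in beta cells. Members were rows of the deposited expression table with exactly 1 gene symbol that starts with Tnfsf or Tnfrsf and a digit (other than Tnfrsf11b), together with Tnf, Lta, Ltb, Ltbr, Cd40, Cd40lg, Cd27, Cd70, Fas, Fasl, Ngfr, Eda, Edar and Eda2r. This gave 42 of the 22180 genes tested, 16 ligands and 26 receptors, each with 1 such row. The rule itself used gene names alone, but it was set with earlier results of these data known.

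The islets were taken at 16 weeks from male and female mice on a C57BL/6 background, and 6 groups of 3 arrays were compared. TRAF3 knockouts carried RIPCre and TRAF3loxP/loxP, TRAF2 knockouts carried RIPCre and TRAF2loxP/loxP, and controls were floxed littermates, without a statement in the labels of which gene was floxed or whether Cre was absent. RIPCre is a Cre recombinase under the rat insulin promoter, so deletion is directed at beta cells and the other cells of an islet keep the gene. Each genotype was studied on a high-fat diet (HFD, 45% of the energy as fat, given for 8 weeks from the age of 8 weeks) and on chow. Whether each sample came from its own animal is not stated, so p-values measure the spread between these samples, which may be technical.

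Ligands of this superfamily act as trimers that draw receptors on a target cell together. Receptors with a death domain can recruit the machinery of cell death, whereas other receptors bind TRAF proteins and signal to NF-kB. TRAF3 and TRAF2, with Birc2 and Birc3, keep NIK (the product of Map3k14) low until receptors such as CD40, BAFF receptor, Fn14 or the lymphotoxin beta receptor engage them, after which NIK starts the non-canonical NF-kB pathway. The series was designed to ask what constant NIK activity does in beta cells.

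Values are log2 probe set signals, deposited after RMA, a method that corrects background, normalizes between arrays and summarizes probes. The arrays' medians lay between 4.80 and 4.956, and 27 of 42 members (6 ligands and 21 receptors) had a mean over 18 arrays above the highest of these. Of the rest, 14 had a mean below the lowest array median, so the size of their differences is uncertain. Receptors with high mean signals were Tnfrsf23, Tnfrsf1a, Tnfrsf21 and Ltbr, while the ligands Cd40lg, Tnfsf18, Cd70 and Tnfsf4 were dim on all 18 arrays. Differences were tested with limma over all genes, with adjusted p under 0.05 counted as a call, and each difference is given ± SE.

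Some arrays stood apart. Scores of T and B cell markers (mean log2 deviation from the 18-array mean) were 1.87 in chow TRAF2 knockout 1 and 1.80 in HFD TRAF3 knockout 2, against at most 1.03 in the other 16 arrays. Chow TRAF2 knockout 1 was the highest of its 3 arrays for 28 of 42 members (30.2% of all genes), and chow control 1 was the lowest of its 3 for 28 of 42 (44.4% of all genes). By Xist and a Y-linked gene, each HFD knockout group held 2 female arrays and 1 male, the HFD controls 3 female arrays, and each chow group 1 female array and 2 male. The probe set of Traf2 did not show the deletion, and where its probes lie relative to the floxed exons is not given in the sources used here, so the TRAF2 genotype rests on the labels. The mean of Traf2 was not lower in the knockouts: it read 6.90 to 7.15 in HFD TRAF2 knockouts against 6.46 to 7.03 in HFD controls, and 7.22 to 7.50 in chow TRAF2 knockouts against 7.04 to 7.34 in chow controls. Beta cell markers (9 measured) were called lower for 7 genes in chow TRAF3 knockouts against chow controls (11.0% of all genes called in either direction). By limma 0 of them were called lower in the other 3 knockout comparisons, with 0 to 4 at an unadjusted p under 0.05.

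Promoter sequence was matched for 34 of the 42 members, with 38 start sites, and is shown for 6 members around which the results below turn. Ngfr, Tnfrsf9 and Tnfrsf1a are 3 of the 4 receptors called over both knockouts and both diets. Tnfrsf10b, the other of these, had no matched promoter. Tnfsf10, Tnfsf15 and Tnfrsf23 followed diet or TRAF3. Each line holds the 250 bases before an annotated start, 5′ to 3′ on the gene's strand, from RefSeq (GRCm38.p6). Capitals mark matches to 3 patterns searched on both strands: GGGNNTTCC, an NF-kB type pattern, TTCNNNGAA, a STAT type pattern, and GAAANNGAA, an interferon response type pattern.
Ngfr (chr11:95587699-95587948, minus strand): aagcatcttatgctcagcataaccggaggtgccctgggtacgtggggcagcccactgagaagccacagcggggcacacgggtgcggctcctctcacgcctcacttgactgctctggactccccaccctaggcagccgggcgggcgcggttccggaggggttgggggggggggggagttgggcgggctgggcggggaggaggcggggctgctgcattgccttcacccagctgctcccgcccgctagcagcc
Tnfrsf9, upstream start (chr4:150919905-150920154, plus strand): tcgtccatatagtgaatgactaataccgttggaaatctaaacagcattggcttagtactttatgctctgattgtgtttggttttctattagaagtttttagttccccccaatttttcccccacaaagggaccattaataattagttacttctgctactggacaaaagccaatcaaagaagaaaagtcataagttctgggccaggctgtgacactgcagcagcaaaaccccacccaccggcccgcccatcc
Tnfrsf9, downstream start (chr4:150927749-150927998, plus strand): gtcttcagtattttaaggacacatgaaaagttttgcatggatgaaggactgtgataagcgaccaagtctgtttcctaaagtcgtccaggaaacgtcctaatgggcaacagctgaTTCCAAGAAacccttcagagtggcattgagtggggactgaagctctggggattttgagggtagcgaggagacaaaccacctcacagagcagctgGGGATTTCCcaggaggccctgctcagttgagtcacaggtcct
Tnfrsf1a (chr6:125349473-125349722, plus strand): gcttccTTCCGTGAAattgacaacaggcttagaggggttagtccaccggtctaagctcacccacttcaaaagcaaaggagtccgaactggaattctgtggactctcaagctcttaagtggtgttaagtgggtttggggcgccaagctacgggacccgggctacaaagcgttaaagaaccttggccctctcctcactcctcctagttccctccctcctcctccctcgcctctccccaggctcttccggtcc
Tnfsf10 (chr3:27316827-27317076, plus strand): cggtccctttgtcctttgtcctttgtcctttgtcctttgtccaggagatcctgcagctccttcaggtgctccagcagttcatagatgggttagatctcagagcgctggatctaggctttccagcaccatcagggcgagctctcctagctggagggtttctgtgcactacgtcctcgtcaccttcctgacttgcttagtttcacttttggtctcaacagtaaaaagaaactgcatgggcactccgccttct
Tnfsf15 (chr4:63745060-63745309, minus strand): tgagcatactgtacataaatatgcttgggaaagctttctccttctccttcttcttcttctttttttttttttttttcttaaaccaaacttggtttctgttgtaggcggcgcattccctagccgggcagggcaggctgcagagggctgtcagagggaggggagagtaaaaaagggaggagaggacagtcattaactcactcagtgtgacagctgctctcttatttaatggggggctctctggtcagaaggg
Tnfrsf23 (chr7:143685876-143686125, minus strand): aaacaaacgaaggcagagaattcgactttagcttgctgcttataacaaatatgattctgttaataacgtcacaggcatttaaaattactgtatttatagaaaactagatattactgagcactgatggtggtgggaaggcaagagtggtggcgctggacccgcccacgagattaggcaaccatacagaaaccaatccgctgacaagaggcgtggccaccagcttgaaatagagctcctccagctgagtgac
The downstream start of Tnfrsf9 held GGGNNTTCC 42 bases before the start and TTCNNNGAA 136 bases before it, counted to the first base of the match. Tnfrsf1a held TTCNNNGAA 244 bases before its start, and the other 5 sequences held none of the patterns. Over all members GGGNNTTCC was in 2 of 38 promoters, against 4.98% of 32851 promoters of the same length, and the patterns did not overlap in the sequences shown. TTCNNNGAA was in 8 of 38 (7.02% of all promoters) and GAAANNGAA in 6 of 38 (7.13% of all promoters). These matches describe letters in a window and were not tested against the expression values.

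Members called in knockout against control islets were all higher in the knockouts, and most of these calls came from chow TRAF3 knockouts. On HFD, TRAF3 knockouts had 1 of 42 members higher than controls and 0 lower, where 2.52% of all genes were called. HFD TRAF2 knockouts also had 1 higher and 0 lower (0.252% of all genes). On chow, TRAF3 knockouts had 11 members higher and 0 lower, with 11.0% of all genes called and 6.33% called higher. Chow TRAF2 knockouts had 2 higher and 0 lower (0.298% of all genes called). The 11 comprised 7 receptors and 4 ligands.

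The median log2 difference of the 42 members was 0.15 in HFD TRAF3 knockouts, where it was -0.0205 over all genes, and 0.077 in HFD TRAF2 knockouts (-0.0029 over all genes). On chow it was 0.32 in both TRAF3 and TRAF2 knockouts (-0.013 and -0.015 over all genes). The sign was positive for 35 of 42 members in chow TRAF3 knockouts and for 33 in chow TRAF2 knockouts. Knockouts of both genes were set against the same controls within a diet, so the values are not independent of each other. Chow control 1 was low for many members: without it 7 members were called in HFD TRAF3 knockouts, where that array acts through the pooled spread alone, and 7 in chow TRAF3 knockouts. The chow TRAF3 count was also 7 without chow TRAF3 knockout 1 and was 6 without chow TRAF3 knockout 3. For these and later fits with arrays left out, the share of all genes called is not given. Such counts therefore stand without a background.

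**Figure D1:**
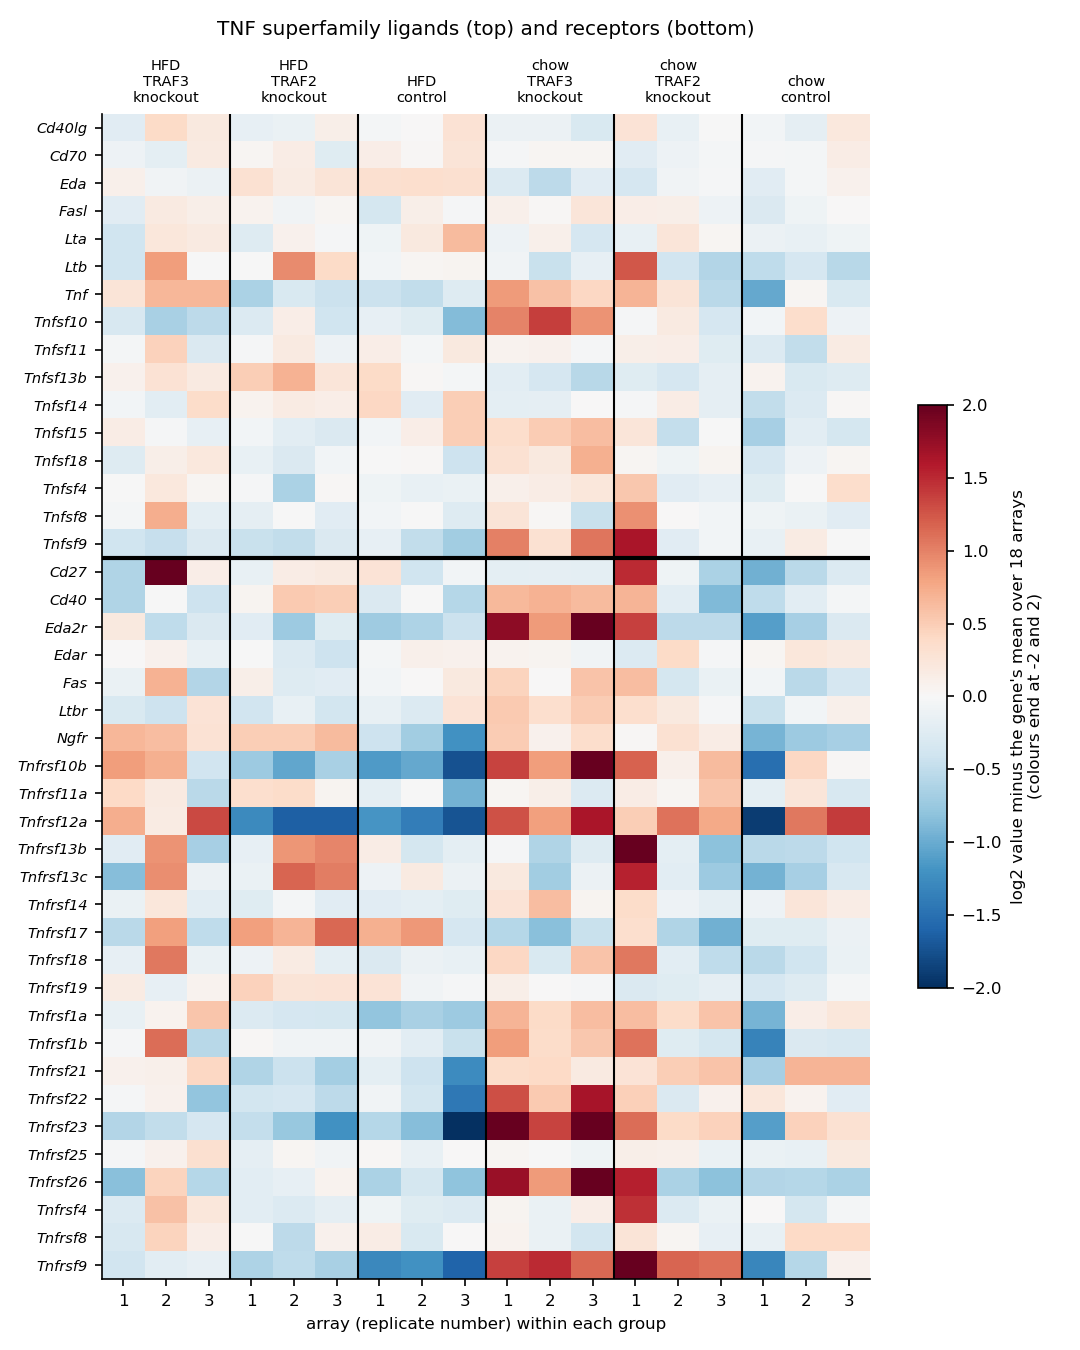
Log2 value of each of 42 members (rows, ligands above the line, receptors below) on each of 18 arrays (columns, 3 per group) minus the gene's mean over all arrays; red is higher and blue lower, and colours end at -2 and 2. Tnfrsf9, Tnfrsf23, Tnfrsf26 and Eda2r are red across the 3 chow TRAF3 knockouts, and Cd27, Tnfrsf13b and Ltb are red in chow TRAF2 knockout 1 and HFD TRAF3 knockout 2.

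**Figure D2:**
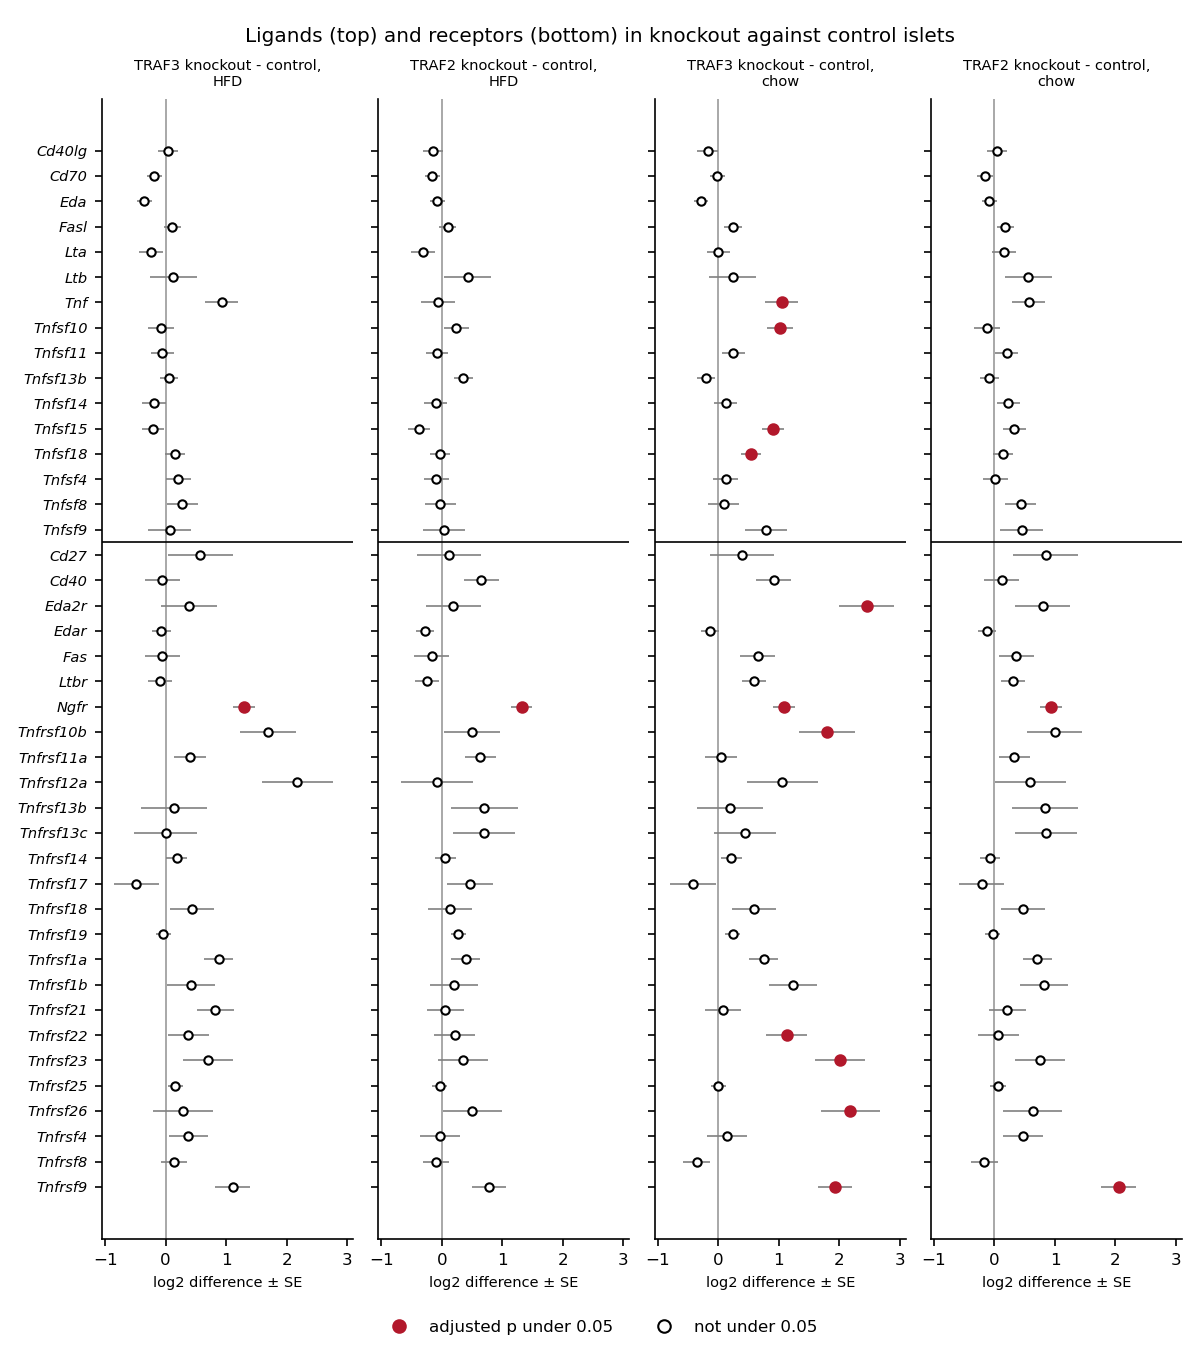
Log2 difference of each member between knockout and control islets in 4 comparisons (x axes, log2 units), with points for limma estimates and bars for SE. Filled points had an adjusted p under 0.05: Ngfr in all 4 panels, Tnfrsf9 in both chow panels and 9 further members in chow TRAF3 knockouts.

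Ngfr was the 1 member called in every knockout comparison in the fit of 6 group means. It encodes p75NTR, the low-affinity neurotrophin receptor with a death domain, known from neurons and Schwann cells. Ngfr (probe set 17268210) read 6.96, 6.91 and 6.57 in HFD TRAF3 knockouts, 6.78, 6.79 and 6.92 in HFD TRAF2 knockouts and 5.88, 5.59 and 5.07 in HFD controls. On chow it read 6.79, 6.37 and 6.64 in TRAF3 knockouts, 6.32, 6.59 and 6.43 in TRAF2 knockouts and 5.36, 5.57 and 5.62 in controls. All 12 knockout arrays lay above all 6 control arrays. The log2 difference was 1.30 ± 0.18 in HFD TRAF3 knockouts (limma adjusted p = 0.00148), 1.32 ± 0.18 in HFD TRAF2 knockouts (adjusted p = 0.00375), 1.08 ± 0.18 in chow TRAF3 knockouts (adjusted p = 0.00233) and 0.93 ± 0.18 in chow TRAF2 knockouts (adjusted p = 0.0363). The last call was lost without any 1 of 12 arrays, at differences of 0.85 to 1.00. With only the groups compared in the fit, Ngfr was not called in HFD TRAF3 knockouts (limma adjusted p = 0.0728) or chow TRAF2 knockouts (adjusted p = 0.364). In whole islets a change in RNA per cell and a change in the number of cells of a type cannot be told apart. Of 4 measured Schwann cell markers 0 were called higher in these comparisons and 1 was called lower in HFD TRAF3 knockouts, and their score lay between -0.20 and 0.27 on every array. S100b lay below every array's median on 18 arrays, Cdh19 on 13, Gfap on 4 and Sox10 on 3. With signals near or below the array medians, these markers cannot show whether the number of Schwann cells changed.

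Across both diets and both knockouts, 4 members rose and 0 fell (2.80% of all genes called, 1.84% higher), and all 4 were receptors. Ngfr was 2.23-fold higher (1.16 ± 0.11, limma adjusted p = 4.4e-05) and Tnfrsf9 2.77-fold (1.47 ± 0.18, adjusted p = 0.000238). Tnfrsf10b was 2.37-fold higher (1.24 ± 0.28, adjusted p = 0.0252) and Tnfrsf1a 1.60-fold (0.68 ± 0.15, adjusted p = 0.0186). Of the 7 receptors with a death domain, Ngfr, Tnfrsf1a and Tnfrsf10b are among the 4. The call of Tnfrsf10b was lost without chow control 1 (0.95), HFD control 1 (1.28) or HFD control 3 (1.13), and that of Tnfrsf1a without HFD control 1 (0.665, adjusted p = 0.0542).

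Tnfrsf9 encodes 4-1BB, a receptor known for costimulation of activated T cells. Tnfrsf9 (probe set 17421981) read 6.74, 6.92 and 6.96 in HFD TRAF3 knockouts, 6.51, 6.63 and 6.48 in HFD TRAF2 knockouts and 5.84, 5.92 and 5.53 in HFD controls. On chow the values were 8.50, 8.62 and 8.27 in TRAF3 knockouts, 9.24, 8.29 and 8.23 in TRAF2 knockouts and 5.82, 6.56 and 7.21 in controls. Within each diet the 6 knockout arrays lay above the 3 controls, although chow control 3 exceeded every HFD knockout array. It rose by 1.93 ± 0.29 in chow TRAF3 knockouts (limma adjusted p = 0.00121) and by 2.05 ± 0.29 in chow TRAF2 knockouts (adjusted p = 0.00663). The HFD differences of 1.11 ± 0.29 (TRAF3 knockouts, adjusted p = 0.0529) and 0.78 ± 0.29 (TRAF2 knockouts, adjusted p = 0.669) did not pass. Its highest value, 9.24, was on chow TRAF2 knockout 1, the array with the T and B cell score of 1.87, while chow TRAF3 knockout 2 (8.62) and chow TRAF2 knockout 3 (8.23) had scores of -0.86 each. The part of lymphocytes in these values was not tested. With only the compared groups in the fit the chow TRAF2 call was lost (adjusted p = 0.478). Tnfrsf9 in HFD TRAF3 knockouts was called under 10 of 29 alternatives.

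Tnfrsf1a encodes TNFR1, the widely expressed TNF receptor with a death domain. Tnfrsf1a (probe set 17463184) read 8.89, 9.10 and 9.59 in HFD TRAF3 knockouts, 8.76, 8.69 and 8.68 in HFD TRAF2 knockouts and 8.25, 8.39 and 8.31 in HFD controls. The chow values were 9.71, 9.42 and 9.65 in TRAF3 knockouts, 9.65, 9.39 and 9.60 in TRAF2 knockouts and 8.10, 9.16 and 9.26 in controls. Knockouts lay above controls within each diet, with chow control 1 far below the other controls of its diet. None of the 4 single comparisons passed: the differences were 0.88 (HFD TRAF3, limma adjusted p = 0.0649), 0.39 (HFD TRAF2, adjusted p = 0.966), 0.75 (chow TRAF3, adjusted p = 0.0536) and 0.71 (chow TRAF2, adjusted p = 0.478). Of 29 alternatives, Tnfrsf1a was called in chow TRAF3 knockouts under 6 and in HFD TRAF3 knockouts under 3.

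Tnfrsf10b encodes the mouse receptor of TRAIL that carries a death domain. Tnfrsf10b (probe set 17301697) read 7.96, 7.84 and 6.75 in HFD TRAF3 knockouts, 6.39, 6.09 and 6.48 in HFD TRAF2 knockouts and 5.99, 6.11 and 5.38 in HFD controls. On chow it read 8.47, 7.96 and 9.27 in TRAF3 knockouts, 8.31, 7.22 and 7.76 in TRAF2 knockouts and 5.61, 7.55 and 7.15 in controls. TRAF3 knockouts lay above controls on both diets, while TRAF2 knockouts overlapped controls on both. It rose by 1.80 ± 0.46 in chow TRAF3 knockouts (limma adjusted p = 0.0207), whereas the 1.69 ± 0.46 of HFD TRAF3 knockouts did not pass (adjusted p = 0.0653). The chow call was lost without chow control 1 (1.22, adjusted p = 0.105), chow TRAF3 knockout 1 (1.84) or chow TRAF3 knockout 3 (1.45).

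**Figure D3:**
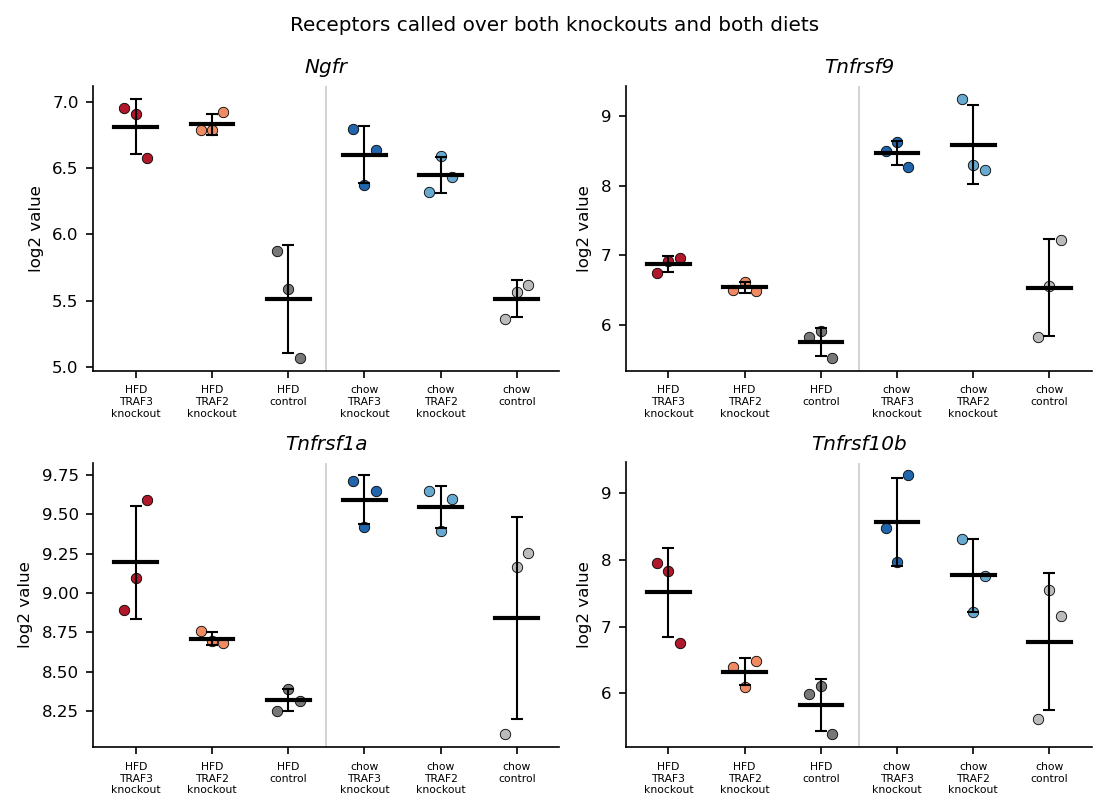
Log2 values of Ngfr, Tnfrsf9, Tnfrsf1a and Tnfrsf10b (y axes) on the 18 arrays, by group; points are arrays, horizontal lines means and bars SD (n = 3). For Ngfr the 12 knockout arrays span 6.32 to 6.96 and the 6 controls 5.07 to 5.88, and chow control 1 is the lowest chow array in all 4 panels.

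In chow TRAF3 knockouts the TRAIL system was higher as ligand, signalling receptor and decoys. Tnfsf10 encodes TRAIL, and Tnfrsf22 and Tnfrsf23 encode decoy receptors for it that are known in the mouse. Tnfsf10 (probe set 17396383) read 6.68, 6.35 and 6.49 in HFD TRAF3 knockouts, 6.73, 7.14 and 6.60 in HFD TRAF2 knockouts and 6.85, 6.77 and 6.14 in HFD controls. On chow the readings were 8.00, 8.39 and 7.91 in TRAF3 knockouts, 6.98, 7.19 and 6.67 in TRAF2 knockouts and 6.96, 7.37 and 6.90 in controls. The 3 chow TRAF3 knockouts were the 3 highest of all 18 arrays. It rose 2.03-fold in chow TRAF3 knockouts against chow controls (1.02 ± 0.21, limma adjusted p = 0.0072).

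Tnfrsf23 (probe set 17498323) read 8.47, 8.57 and 8.73 in HFD TRAF3 knockouts, 8.58, 8.31 and 7.84 in HFD TRAF2 knockouts and 8.48, 8.21 and 6.98 in HFD controls. The chow readings were 11.18, 10.41 and 11.32 in TRAF3 knockouts, 10.17, 9.43 and 9.52 in TRAF2 knockouts and 7.95, 9.52 and 9.37 in controls. Its 3 chow TRAF3 knockouts were the highest of the 18 arrays, and it rose 4.05-fold against chow controls (2.02 ± 0.41, limma adjusted p = 0.00669). Tnfrsf22 (probe set 17498310) read 7.85, 7.08 and 8.19 in chow TRAF3 knockouts, 7.02, 6.27 and 6.63 in chow TRAF2 knockouts and 6.79, 6.62 and 6.32 in chow controls. It rose 2.19-fold (1.13 ± 0.34, limma adjusted p = 0.043), and the call was lost without any 1 of 11 arrays (0.89 to 1.24). Tnfrsf26 (probe set 17498301), a neighbouring receptor gene on chromosome 7, read 7.27, 6.41 and 7.71 in chow TRAF3 knockouts, 7.11, 4.91 and 4.73 in chow TRAF2 knockouts and 4.97, 4.97 and 4.91 in chow controls. It rose 4.54-fold (2.18 ± 0.49, limma adjusted p = 0.0106), and 1 chow TRAF2 knockout, the lymphocyte-rich array 1, was as high as the TRAF3 knockouts. That array also shared their low beta cell markers: its beta cell score was -0.86, where the chow TRAF3 knockouts had -1.11, -0.62 and -1.42 and the other chow TRAF2 knockouts 0.12 and 0.31. Its myeloid score was 0.51, against -0.79 and -0.69 in the other chow TRAF2 knockouts. Tnfrsf22, Tnfrsf23 and Tnfrsf26 are related genes that lie side by side, and signal shared between their probes was not tested.

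Eda2r had the largest rise of any member in this comparison. It encodes XEDAR, a receptor for the A2 form of ectodysplasin. Eda2r (probe set 17543396) read 6.83, 5.89 and 7.69 in chow TRAF3 knockouts, 6.41, 4.52 and 4.51 in chow TRAF2 knockouts and 3.93, 4.37 and 4.75 in chow controls. The TRAF3 knockouts did not overlap the controls, and chow TRAF2 knockout 1 again stood with the TRAF3 knockouts. It rose 5.47-fold (2.45 ± 0.46, limma adjusted p = 0.00417), a size that is uncertain because the control mean of 4.35 lay below every array's median. Its ligand gene Eda read 6.45, 6.20 and 6.50 in chow TRAF3 knockouts and 6.50, 6.68 and 6.82 in chow controls (-0.29 ± 0.12, adjusted p = 0.159).

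Of the remaining ligands, Tnfsf15, Tnf and Tnfsf18 rose in chow TRAF3 knockouts. Tnfsf15, which encodes TL1A, a ligand of Tnfrsf25, read 5.12, 5.27 and 5.38 there, 5.005, 4.29 and 4.75 in chow TRAF2 knockouts and 4.09, 4.55 and 4.41 in chow controls (probe set 17426348). It rose by 0.90 ± 0.18 (limma adjusted p = 0.00631), with the control mean of 4.35 below every array's median. Tnf (probe set 17344309), the founding cytokine of the family, read 6.15, 6.55 and 6.55 in HFD TRAF3 knockouts, 5.25, 5.58 and 5.45 in HFD TRAF2 knockouts and 5.45, 5.39 and 5.62 in HFD controls (0.93 ± 0.28 for TRAF3, adjusted p = 0.0944). On chow Tnf read 6.74, 6.47 and 6.30 in chow TRAF3 knockouts, 6.56, 6.14 and 5.35 in chow TRAF2 knockouts and 4.86, 5.93 and 5.57 in chow controls. The 3 TRAF3 knockouts lay above the 3 controls on both diets. Tnf rose by 1.05 ± 0.28 on chow (limma adjusted p = 0.0236), and the call was lost without chow control 1 (0.75, adjusted p = 0.127), chow TRAF3 knockout 1 (0.93) or chow TRAF3 knockout 3 (1.15). Tnfsf18, the ligand of GITR, read 3.11, 3.00 and 3.52 in chow TRAF3 knockouts and 2.47, 2.71 and 2.84 in chow controls. Its rise of 0.54 ± 0.17 (limma adjusted p = 0.0495) concerned a probe set below every array median, and the call was lost without any 1 of 13 arrays (0.38 to 0.59).

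The score of ductal markers was higher in chow TRAF3 knockouts than in chow controls, but its genes did not move alike. Anxa3 and Krt19 lay above all chow controls, while Krt7, Sox9, Muc1 and Cftr overlapped them. Krt7 read 8.27, 8.55 and 8.18 against 8.20, 8.63 and 8.21. Cftr read 7.30, 6.10 and 5.86 in HFD TRAF2 knockouts against 4.32, 3.41 and 4.32 in HFD controls, so the score also carries differences between genotypes on HFD. The ductal score (6 measured genes) was 0.78, 0.42 and 1.28 in chow TRAF3 knockouts and -1.09, 0.13 and 0.30 in chow controls, with 1 of 6 genes called higher. With this score added to the fit the count was 2 of 42, and the members called were Ngfr and Tnfrsf9; the other 9 kept their sign, with adjusted p from 0.0657 (Eda2r, 1.69) to 0.307 (Tnfsf18, 0.42). Of 11 measured myeloid markers 4 were called higher in the same comparison, where 11.0% of all genes were called and 6.33% called higher. The part of ductal and myeloid cells in these differences was not tested.

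**Figure D4:**
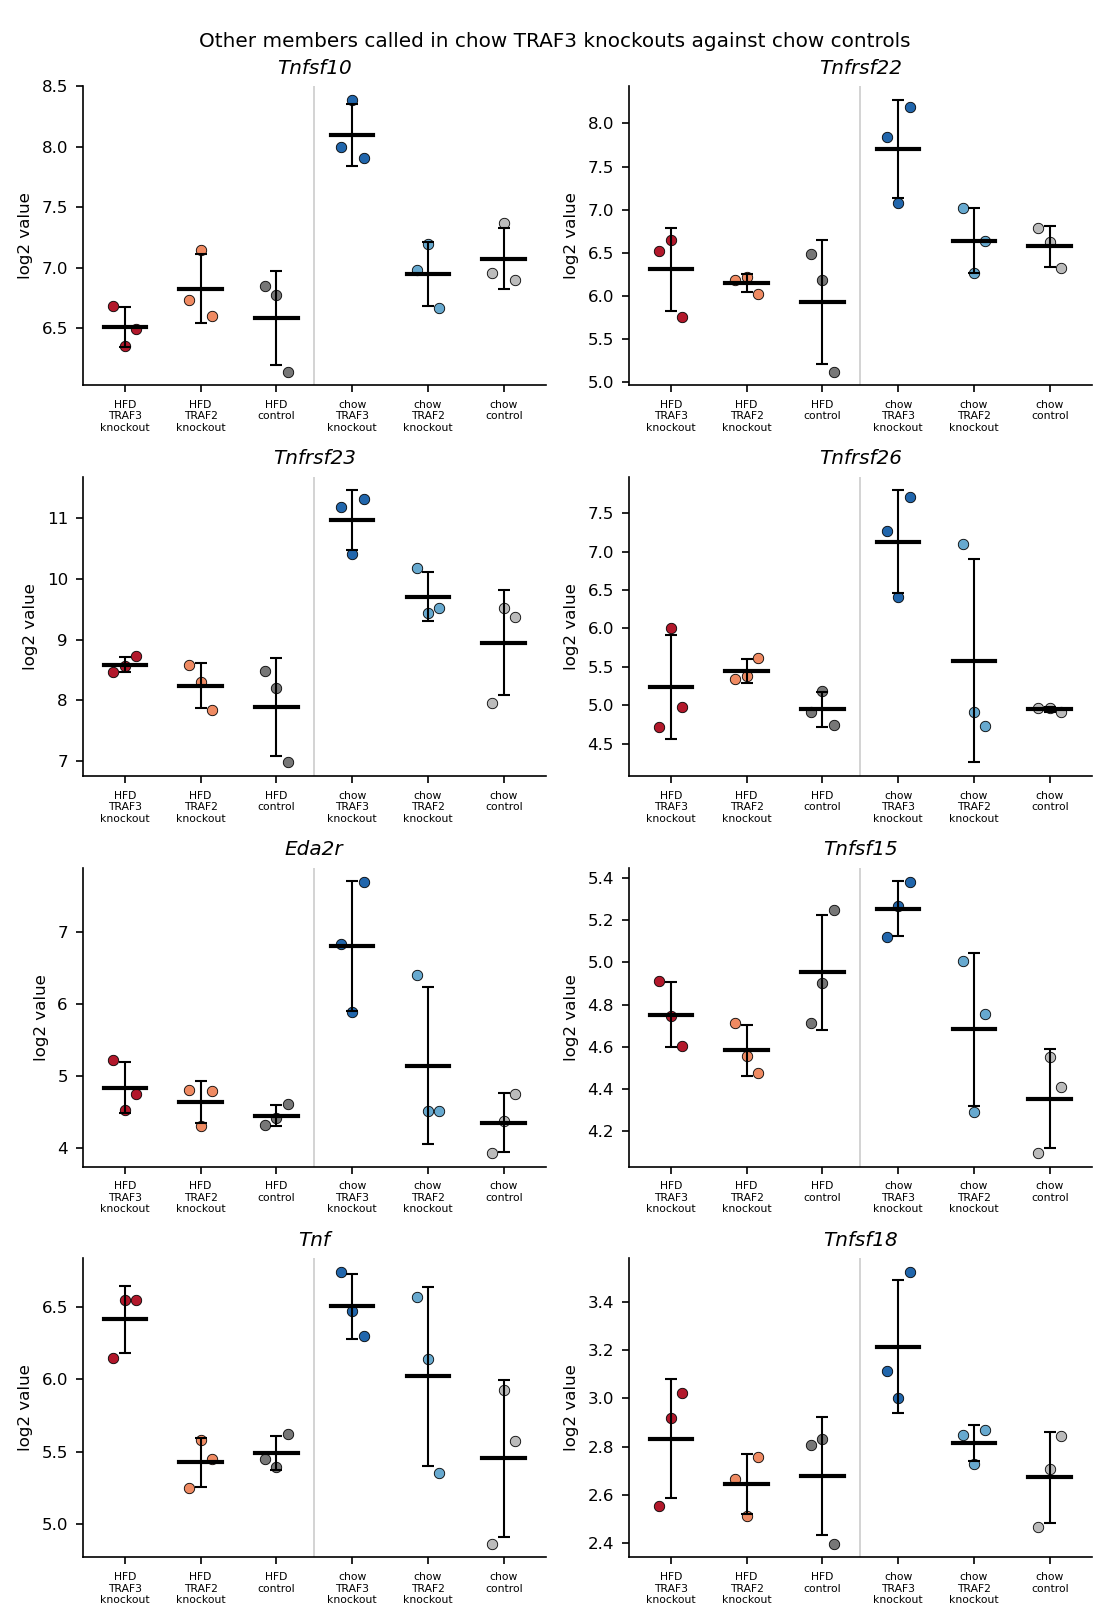
Log2 values (y axes) of 8 further members called in chow TRAF3 knockouts, on the 18 arrays by group; points are arrays, horizontal lines means and bars SD (n = 3). Chow TRAF3 knockouts are the highest group mean in each panel, chow TRAF2 knockout 1 joins them for Tnfrsf26 and Eda2r, and HFD TRAF3 knockouts read 6.15 to 6.55 for Tnf.

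A list of 8 receptors known to signal to non-canonical NF-kB held Cd40, Ltbr, Tnfrsf13c, Tnfrsf11a, Tnfrsf12a, Tnfrsf1b, Cd27 and Tnfrsf8. None of these was called in any of the 4 knockout comparisons (0 of 8 in each by limma, with 0 to 3 at an unadjusted p under 0.05). The list is not a full account of such receptors. Tnfrsf9, called in both chow knockout comparisons, was not on it. With at most 11.0% of all genes called in any of these comparisons, a count of 0 among 8 is not apart from the background. Tnfrsf12a, which encodes Fn14, had the largest difference that did not pass. Tnfrsf12a (probe set 17341540) read 8.35, 7.79 and 8.95 in HFD TRAF3 knockouts, 6.34, 5.99 and 5.99 in HFD TRAF2 knockouts and 6.43, 6.23 and 5.89 in HFD controls. On chow it read 8.90, 8.45 and 9.26 in TRAF3 knockouts, 8.12, 8.71 and 8.38 in TRAF2 knockouts and 5.73, 8.67 and 9.02 in controls. On HFD the 3 TRAF3 knockouts were thus apart from the other 6 arrays, whereas on chow 8 of 9 arrays were high and chow control 1 was low. The HFD TRAF3 difference was 2.18 ± 0.59 (limma adjusted p = 0.0638). Without chow control 1 the pooled spread of this gene was smaller and the same 2.18 had an adjusted p of 0.000414. Tnfrsf1a (0.88), Tnfrsf10b (1.69), Tnf (0.93), Tnfrsf21 (0.82) and Tnfrsf9 (1.11) were also called in HFD TRAF3 knockouts in that fit, with Ngfr.

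Others of this list came near the threshold in chow TRAF3 knockouts. Cd40, the receptor of CD40 ligand, read 6.44, 6.49 and 6.42 there, 6.47, 5.59 and 4.90 in chow TRAF2 knockouts and 5.28, 5.58 and 5.74 in chow controls (0.92 ± 0.29 for TRAF3, limma adjusted p = 0.0531). Tnfrsf1b, the second TNF receptor, read 7.68, 7.22 and 7.39 in chow TRAF3 knockouts, 7.93, 6.61 and 6.50 in chow TRAF2 knockouts and 5.51, 6.56 and 6.52 in chow controls (1.23 ± 0.40, limma adjusted p = 0.0596). Ltbr, the lymphotoxin beta receptor, read 8.86, 8.67 and 8.84 in chow TRAF3 knockouts, 8.67, 8.53 and 8.31 in chow TRAF2 knockouts and 7.89, 8.27 and 8.43 in chow controls (0.59 ± 0.19, limma adjusted p = 0.0619). For all 3 genes every chow TRAF3 knockout lay above every chow control. These calls depended on the fit: of 29 alternatives, Cd40 was called higher in chow TRAF3 knockouts under 8 (adjusted p = 0.0121 with only the groups compared and 0.00964 without chow TRAF2 knockout 1), Tnfrsf1b under 7 (0.0374 and 0.0242 in the same limma fits) and Ltbr under 4. Tnfrsf11a, which encodes RANK, differed by 0.047 ± 0.26 there, and its 3 HFD TRAF2 knockouts at 7.02, 7.04 and 6.74 lay above the HFD controls at 6.49, 6.68 and 5.72 (0.64 ± 0.26, adjusted p = 0.799). Tnfrsf21, which encodes the death domain receptor DR6, read 9.08, 9.10 and 9.40 in HFD TRAF3 knockouts, 8.40, 8.56 and 8.31 in HFD TRAF2 knockouts and 8.80, 8.57 and 7.73 in HFD controls (0.82 ± 0.30 for TRAF3, adjusted p = 0.192).

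Set directly against each other, the 2 knockouts differed in 1 member on chow and in 0 on HFD. On HFD limma called 0 of 42 (1.05% of all genes), with 8 at an unadjusted p under 0.05. The largest of those 8 was Tnfrsf12a, higher by 2.26 ± 0.59 in TRAF3 than in TRAF2 knockouts (adjusted p = 0.09), followed by Tnfrsf10b at 1.19 ± 0.46 (adjusted p = 0.313) and Tnf at 0.99 ± 0.28 (adjusted p = 0.119). Without chow control 1 the Tnfrsf12a difference was called (2.26, adjusted p = 0.000472). On chow Tnfsf10 was the 1 member called (2.01% of all genes), 2.22-fold higher in TRAF3 than in TRAF2 knockouts (1.15 ± 0.21, limma adjusted p = 0.0153).

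The chow comparison of the knockouts rested on single arrays. Without chow TRAF2 knockout 1, the lymphocyte-rich array, 6 members were called, a count given without the share of all genes called in that fit. The count was 2 without chow TRAF3 knockout 2, and 0 without chow TRAF3 knockout 1, chow TRAF3 knockout 3 or chow TRAF2 knockout 3. With both lymphocyte-rich arrays left out, an alternative chosen after seeing the data, Tnfrsf26 (2.31, adjusted p = 0.000201), Eda2r (2.29, adjusted p = 0.00247), Cd40 (1.21), Tnfsf9 (0.93) and Tnfsf15 (0.73) were higher in TRAF3 knockouts in addition to Tnfsf10.

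The diet comparison ran mostly downward for TRAF3 knockouts. In HFD against chow TRAF3 knockouts 8 members were lower and 1 was higher (8.67% of all genes called, 6.01% lower and 2.66% higher). Of the 8 that fell, Tnfrsf23 fell by 2.38 ± 0.41 (limma adjusted p = 0.00321), Eda2r fell by 1.97 ± 0.46 (adjusted p = 0.016), Tnfrsf26 fell by 1.90 ± 0.49, Tnfrsf9 fell by 1.59 ± 0.29, Tnfsf10 fell by 1.59 ± 0.21 (adjusted p = 0.000674), Tnfrsf22 fell by 1.40 ± 0.34 and Cd40 fell by 1.00 ± 0.29. The eighth, Tnfsf9, the ligand of 4-1BB, read 5.63, 5.57 and 5.75 in HFD against 7.05, 6.33 and 7.10 in chow TRAF3 knockouts (-1.18 ± 0.35, limma adjusted p = 0.0473). In each of the 8 all 3 HFD arrays lay below all 3 chow arrays. In the same comparison 7 of 9 beta cell markers were called higher, and the ductal score was 0.03, -0.77 and 0.47 on HFD against 0.78, 0.42 and 1.28 on chow. The count was 3 without chow TRAF3 knockout 1 or 3, 5 without any 1 of the 3 HFD TRAF3 knockouts and 4 once the ductal score was fitted too.

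Tnfsf13b encodes BAFF, a survival factor of B cells, and was the 1 member higher on HFD in both knockouts. Tnfsf13b (probe set 17498897) read 5.38, 5.58 and 5.47 in HFD against 5.08, 4.97 and 4.74 in chow TRAF3 knockouts (0.55 ± 0.15, limma adjusted p = 0.0357). It read 5.78, 5.99 and 5.54 in HFD against 5.05, 4.96 and 5.12 in chow TRAF2 knockouts (0.73 ± 0.15, limma adjusted p = 0.0219). The HFD arrays lay above the chow arrays in both. Controls read 5.68, 5.32 and 5.25 on HFD and 5.36, 4.98 and 5.04 on chow (0.29 ± 0.15, adjusted p = 0.378). The TRAF3 call was lost without any 1 of the 6 arrays compared, and the TRAF2 call without chow TRAF2 knockout 2 or 3 or HFD TRAF2 knockout 1 or 2.

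In HFD against chow TRAF2 knockouts 2 members were higher and 1 was lower (1.96% of all genes called, 0.884% higher and 1.08% lower). Myeloid markers moved in the same comparison, with 4 of 11 called higher and 0 lower, and their part in the differences was not tested. Tnfrsf9 fell by 2.05 ± 0.29 (limma adjusted p = 0.00185), Tnfsf13b rose, and Tnfrsf19, which encodes the receptor TROY, read 6.03, 5.83 and 5.84 on HFD against 5.27, 5.34 and 5.39 on chow (0.57 ± 0.12, adjusted p = 0.0276). Leaving out any 1 of the 6 arrays compared ended the Tnfrsf19 call. Tnfrsf12a was the nearest other member, at -2.30 ± 0.59 (adjusted p = 0.0558). Without chow control 1 the count was 8, with Tnfrsf12a (-2.30), Tnfrsf23 (-1.46), Tnfrsf10b (-1.44), Tnfrsf21 (-1.01) and Tnfrsf1a (-0.84) also lower, and it was 1 without chow TRAF2 knockout 2 or 3 or HFD TRAF2 knockout 1 or 2.

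In HFD against chow controls limma called 0 of 42 members (0.884% of all genes), with 10 at an unadjusted p under 0.05. The 5 that were called once chow control 1 was left out were all lower on HFD: Tnfrsf12a (-2.66, adjusted p = 0.000468), Tnfrsf23 (-1.56), Tnfrsf21 (-1.31), Tnfrsf9 (-1.13) and Tnfrsf1a (-0.89). The HFD controls were 3 female arrays and the chow controls 1 female and 2 male, and the count was also 0 with sex as a covariate.

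The difference between knockout and control itself depended on diet for 2 ligands in TRAF3 knockouts. Of 42 members 2 had a called interaction, both negative, a share no larger than the 5.80% of all genes called. Tnfsf15 read 4.91, 4.74 and 4.60 in HFD TRAF3 knockouts and 4.71, 4.90 and 5.25 in HFD controls, so that its HFD difference was -0.20 ± 0.18 beside 0.90 ± 0.18 on chow (interaction -1.11 ± 0.26, limma adjusted p = 0.0235). For Tnfsf10 the HFD difference was -0.077 ± 0.21 beside 1.02 ± 0.21 on chow (interaction -1.10 ± 0.30, adjusted p = 0.0429). The knockout arrays were above the controls on chow for both ligands and overlapped them on HFD. Without chow control 1 the count was 3: Tnfsf10 was lost (-1.04, adjusted p = 0.083), while Tnfrsf12a (2.16, adjusted p = 0.0116) and Tnfrsf21 (1.19, adjusted p = 0.0421) had called positive interactions. The count was 4 without chow TRAF2 knockout 1, 0 without chow TRAF3 knockout 3 and 1 without chow TRAF3 knockout 1, chow control 3, HFD TRAF3 knockout 1 or 2, HFD TRAF2 knockout 1 or 3, or any of the 3 HFD controls. For TRAF2 knockouts limma called 0 interactions among the 42 members (0% of all genes), with 2 at an unadjusted p under 0.05, Tnfrsf9 (-1.27 ± 0.41) and Tnfsf15 (-0.70 ± 0.26).

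Of the members known from lymphocytes, Cd27 was high on 2 arrays and Ltb, Tnfrsf13b and Tnfrsf13c on 4. Tnfrsf13b, Tnfrsf13c and Tnfrsf17 encode TACI, the BAFF receptor and BCMA of B cells and plasma cells. These genes, Cd27 and the ligand Ltb were not called in any of 12 comparisons in the fit of 6 group means. With the lymphocyte score as a covariate, Tnfrsf17 was called higher in HFD against chow TRAF2 knockouts (1.09, limma adjusted p = 0.0238). Cd27, a receptor of T and memory B cells, read 4.02, 6.63 and 4.76 in HFD TRAF3 knockouts, 4.47, 4.77 and 4.81 in HFD TRAF2 knockouts and 4.90, 4.23 and 4.57 in HFD controls. In chow islets it read 4.43, 4.44 and 4.42 in TRAF3 knockouts, 6.11, 4.54 and 3.98 in TRAF2 knockouts and 3.66, 4.08 and 4.35 in controls. The high values are those of the arrays with T and B cell scores of 1.80 and 1.87. Tnfrsf13c read 6.17, 7.96 and 6.90 in HFD TRAF3 knockouts, 6.90, 8.19 and 8.04 in HFD TRAF2 knockouts and 6.92, 7.21 and 6.90 in HFD controls. On chow Tnfrsf13c read 7.23, 6.33 and 6.91 in TRAF3 knockouts, 8.57, 6.81 and 6.30 in TRAF2 knockouts and 6.08, 6.36 and 6.70 in controls. Its 4 highest arrays were the 4 with the highest T and B cell scores (0.95 to 1.87), and the same 4 arrays were the highest for Ltb and Tnfrsf13b. Tnfrsf17 differed: it read 4.73, 4.60 and 5.05 in HFD TRAF2 knockouts against 4.25, 3.31 and 2.94 in chow TRAF2 knockouts (1.29 ± 0.38, limma adjusted p = 0.0918), so that all 3 HFD arrays lay above the lymphocyte-rich chow array. With both lymphocyte-rich arrays left out, limma called Tnfrsf17 (1.67, adjusted p = 0.00479) and Ltb (0.93, adjusted p = 0.036) higher in HFD against chow TRAF2 knockouts. Tnfrsf17 was then lower in TRAF3 than in TRAF2 knockouts on HFD (-1.40, limma adjusted p = 0.0214). That fit set HFD TRAF2 knockouts (T and B cell scores -0.02, 1.03 and 0.95) against chow TRAF2 knockouts 2 and 3 (-0.37 and -0.86). Ltb was called in that diet comparison under 1 of 29 alternatives. The mean of Tnfrsf17 lay below every array's median in each group, so the size of its differences is uncertain. Limma called 0 of 7 T cell and 0 of 6 B cell marker genes in each of the 12 comparisons, with at most 1 at an unadjusted p under 0.05, and the part of lymphocytes in the values of these members was not tested.

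**Figure D5:**
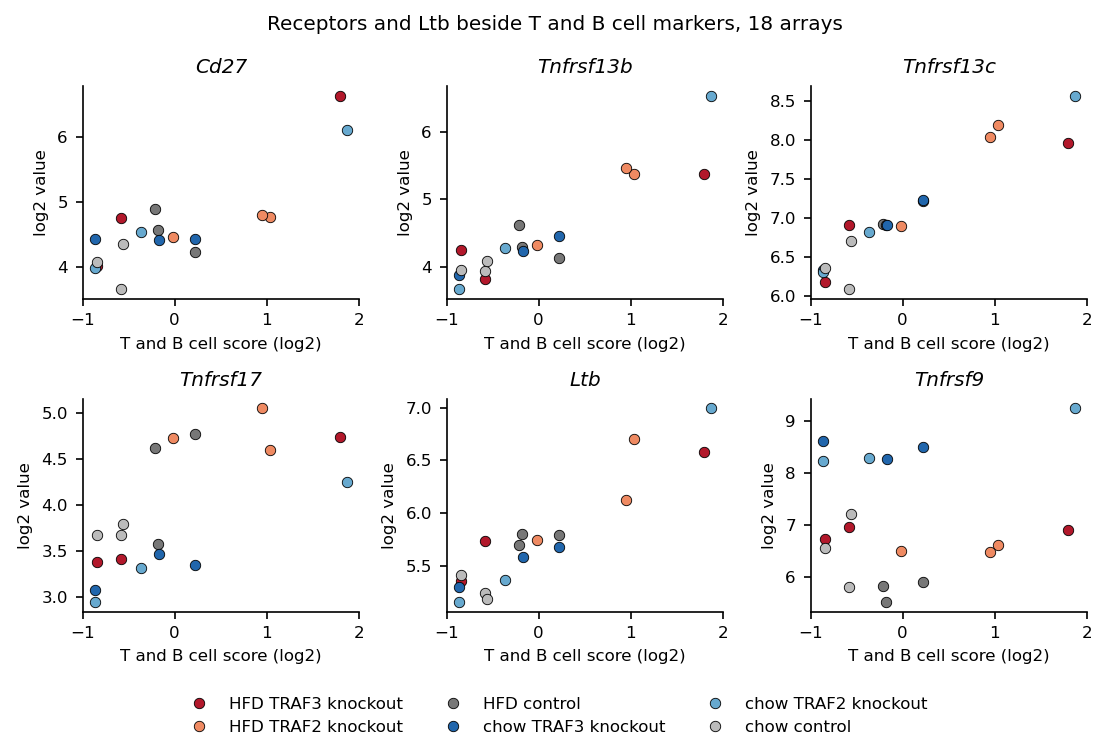
Log2 value of 6 members (y axes) against the mean score of T and B cell markers (x axes, log2 deviation) on 18 arrays, coloured by group. Tnfrsf13b, Tnfrsf13c and Ltb are highest on the 4 arrays with scores of 0.95 to 1.87, while Tnfrsf9 is high on chow knockout arrays at scores from -0.86 to 1.87.

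Ligands were set beside their receptors in chow TRAF3 knockouts, where most calls fell. Tnfsf10 and its receptors Tnfrsf10b, Tnfrsf22 and Tnfrsf23 were called higher, as was Tnf, whose receptors Tnfrsf1a and Tnfrsf1b missed the threshold there. Tnfsf15 was called while its receptor Tnfrsf25 read 5.23, 5.19 and 5.11 in chow TRAF3 knockouts against 5.07, 5.06 and 5.40 in chow controls. For Tnfsf18 the receptor Tnfrsf18 read 6.14, 5.42 and 6.28 in chow TRAF3 knockouts against 5.18, 5.31 and 5.58 in chow controls (0.59 ± 0.36) and was not called. Tnfrsf9 was called while its ligand Tnfsf9 read 7.05, 6.33 and 7.10 in chow TRAF3 knockouts against 5.89, 6.19 and 6.03 in chow controls (0.79 ± 0.35, limma adjusted p = 0.175). Fas and its ligand Fasl were not called in any comparison, nor were Cd40lg, Cd70, Tnfsf4, Tnfsf8, Tnfsf11, Tnfsf14, Lta, Edar, Tnfrsf4, Tnfrsf8 and Tnfrsf14. In all, 16 of 42 members, 10 receptors and 6 ligands, were called in at least 1 of 12 comparisons, where 17.9% of all genes were, and 26 in none.

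Genes that act below the receptors were examined as a list of adaptors, kinases, caspases and NF-kB components, of which 34 were measured. In HFD TRAF3 knockouts 9 of 34 rose and 0 fell (2.52% of all genes called), among them Rel (2.04 ± 0.39), Tnfaip3 (1.97 ± 0.40), Nfkb2 (1.59 ± 0.29) and Map3k14, which encodes NIK (1.06 ± 0.21). In HFD TRAF2 knockouts 0 of 34 were called by limma (0.252% of all genes), with 1 at an unadjusted p under 0.05. In chow TRAF3 knockouts 12 rose and 2 fell (11.0% of all genes called), with Mlkl, the effector of necroptosis, higher by 2.68 ± 0.34, Birc3 by 1.63 ± 0.19 and Tnfaip3, a feedback inhibitor, by 1.50 ± 0.40, while Tab1 fell by 0.70 ± 0.11 and Tab2 fell by 0.38 ± 0.10. In chow TRAF2 knockouts Birc3 (0.99 ± 0.19) and Tnip1 (0.74 ± 0.14) rose (0.298% of all genes called). Over both knockouts and both diets 10 of 34 rose and 0 fell (2.80% of all genes called). Mlkl read 8.57, 8.19 and 8.63 in chow TRAF3 knockouts, 7.57, 5.70 and 6.03 in chow TRAF2 knockouts and 5.55, 5.85 and 5.97 in chow controls, so that array 1 of the TRAF2 knockouts again stood between the groups. It fell by 2.72 ± 0.34 in HFD against chow TRAF3 knockouts (limma adjusted p = 0.000413).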

How the data were processed

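RNA of 18 islet samples (250 ng each, biotin label) was hybridised to 1-colour Affymetrix arrays, and the authors deposited log2 values per probe set; RMA and limma are named, without versions, per the submitters' processing notes. Joint normalization of all 18 arrays and a genome build are not given in the sources used here. Of 41345 probe sets, 23521 had 1 gene symbol in the platform annotation, 1814 several and 16010 none. Probe sets with 1 symbol were kept, taking the highest mean per gene, which left 22180 genes. Values were used as deposited, with no filter.

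One fit of 6 group means (limma 3.58.1, lmFit and eBayes, R 4.3.3; 12 residual and 3.69 prior degrees of freedom) gave 12 contrasts, with two-sided p-values and Benjamini-Hochberg adjustment across the 22180 genes of each contrast. It was tested on simulated data. The number of arrays limits the precision. Members, gene lists and alternatives were chosen with earlier results of these data known. Arrays are given individually for members called in any contrast and, of the rest, for the brightest and those with large differences. The Traf3 transcript is not reported here. Alternatives covered normalization, variance model, filter, probe sets, samples in the fit, replicate block, sex, lymphocyte and ductal scores and each array left out; leaving out both lymphocyte-rich arrays was added after seeing the data.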

Additional observations from a re-analysis of the deposited data

Results flagged for a closer look

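Tnfsf15 and Tnfsf10 were the 2 of 42 members for which the TRAF3 knockout difference itself differed between diets, by the interaction term of the limma fit. That share was no larger than the 5.80% of all genes called. For Tnfsf15 the interaction was -1.1051 on the log2 scale (SE 0.2592, adjusted p = 0.0235), with a knockout minus control difference of -0.20 on HFD and 0.90 on chow. For Tnfsf10 it was -1.1004 (SE 0.3013, adjusted p = 0.0429), with -0.077 on HFD and 1.02 on chow. The Tnfsf15 call was lost without chow TRAF3 knockout 3 (-1.04) or HFD control 3 (-0.96), and the Tnfsf10 call without any 1 of 12 arrays. Ductal scores, which differed between diets in TRAF3 knockouts, ended both calls as a covariate (-1.02 for Tnfsf15, adjusted p = 0.0508, and -1.06 for Tnfsf10, adjusted p = 0.0807).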

How the results depend on the processing

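Of 34 calls of a member in a comparison, 9 were kept under all 29 alternatives and 0 reversed; the 9 were Ngfr in chow TRAF3 knockouts, HFD TRAF2 knockouts and both knockouts together, Tnfrsf9 in chow TRAF3 knockouts, both knockouts together and both diet comparisons of knockouts, and Tnfrsf23 and Tnfsf10 in HFD against chow TRAF3 knockouts. Over single left-out arrays 15 of the 34 were kept. Replicate numbers were not treated as pairs, because no comparison had all 3 same-number correlations over 0.1. HFD against chow controls came close, with 0.164, 0.0972 and 0.383. Correlations between so few arrays cannot show that pairing by replicate number is absent. With the replicate number as a block, Ngfr in chow TRAF2 knockouts was not called (count 1). In chow TRAF3 knockouts Tnfsf18 missed (limma adjusted p = 0.0515) and Tnfrsf1a was called in its place (0.75, adjusted p = 0.0486). Counts other than that of chow TRAF2 knockouts were as reported.

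The count of chow TRAF2 knockouts (2) was 1 after repeated quantile normalization, with every probe set fitted, with the lymphocyte score or without both lymphocyte-rich arrays, 0 with only the groups compared and 1 to 2 with 1 array left out. That of chow TRAF3 knockouts (11) was 2 with the ductal score and 6 to 14 with 1 array left out. That of HFD TRAF3 knockouts (1) was 2 with arrays centred, a trend and robust fit, only the groups compared or the lymphocyte score, 3 after quantile normalization, 4 with the ductal score, 5 without the dimmer genes and 1 to 7 with 1 array left out: 3 without chow control 3, 2 without chow TRAF2 knockout 1 or 3 or HFD TRAF3 knockout 3. With only the groups compared, the 2 in HFD TRAF3 knockouts were Tnfrsf12a and Tnfrsf9, and Ngfr was not called. The count of HFD TRAF2 knockouts (1) was always 1, and that of both knockouts (4) lay between 3 and 6. For TRAF3 against TRAF2 knockouts, the HFD count (0) was 1 with only the groups compared, the lymphocyte score or both lymphocyte-rich arrays left out, 2 with the ductal score and 0 to 1 with 1 array left out; the chow count (1) was 0 with only the groups compared or the ductal score, 4 with the lymphocyte score, 6 without both lymphocyte-rich arrays and 0 to 6 with 1 array left out. For HFD against chow, the TRAF3 knockout count (9) was 5 with only the groups compared, 4 with the ductal score and 3 to 9 with 1 array left out; the TRAF2 knockout count (3) was 5 with arrays centred, 6 with only the groups compared or without both lymphocyte-rich arrays, 7 with the ductal score and 1 to 8 with 1 array left out; the control count (0) was 0 to 5. The TRAF3 interaction count (2) was 1 without the dimmer genes, with every probe set or with sex, 0 with the ductal score, 6 without both lymphocyte-rich arrays and 0 to 4 with 1 array left out; the TRAF2 interaction count was 0 throughout. The share of all genes called in each alternative fit is not given, so these counts cannot be read as changes particular to the members. The causes were not tested.

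No member has a further probe set, so no other row of a gene could be tried, and the combined comparison has no separate value for only the groups compared. Centring or repeated quantile normalization moved the median of all genes by less than 0.1 in every comparison. Fits with few arrays per group, 14 members below every array's median and markers of ductal, myeloid and lymphoid cells that differ between arrays limit what the differences show.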

Other observations

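Some rows with several gene symbols touch the superfamily and were no members. The row shared by Tnfsfm13, Tnfsf13 and Tnfsf12 (APRIL and TWEAK, the ligand of Fn14) read 4.996 to 6.12 over the 18 arrays, with a smallest limma adjusted p of 0.366 over 12 comparisons. A row shared by Tnfrsf18 and Gm16008 read 4.24 to 5.98, with a smallest adjusted p of 0.649.

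Of 11 myeloid markers, 4 were higher and 0 lower in chow TRAF3 knockouts against chow controls (11.0% of all genes called, 6.33% higher). In HFD against chow TRAF3 knockouts 2 were lower and 0 higher (8.67% of all genes called, 6.01% lower). In HFD TRAF3 knockouts against HFD controls 2 of 11 were lower and 0 higher (2.52% of all genes called). For HFD against chow controls 6 of 11 were higher and 0 lower (0.884% of all genes called). The TRAF3 by diet interaction of these markers was called for 6 of 11, all negative (5.80% of all genes called).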
